A study of Homo sapiens with 6 samples.

Results

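GYPB, GYPC, GYPE, SLC4A1, RHAG, EPB41, ANK1 and SPTB are 8 genes of the red cell membrane, read here from the 19330 genes counted by RNA-Seq in K562, a cell line established from human chronic myelogenous leukemia and with erythroid features. They were chosen by name, as glycophorins, members of the band 3 and Rh complex and members of the membrane skeleton, with earlier results of these data known. The libraries come from a study that asked how N6AMT1, a methyltransferase, supports mitochondrial RNA processing, and the RNA-Seq addressed whether its loss changes nuclear transcription. All cells were transduced with a lentivirus (pLentiCRISPRv2) that carries Cas9 and an sgRNA, selected with puromycin and, per the labels, kept for 10 d after infection. The 3 sgCtrl libraries received sgRNAs against olfactory receptor genes (OR11A1 and OR2M49 per the labels, EGFP or OR11A1 and OR2M4 per the methods), and the 3 sgN6AMT1 libraries received sgRNAs against N6AMT1. The sources used here do not tie a library to its sgRNA. The cells are transduced pools, and pooled cells can keep unedited alleles.

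The red cell membrane is a lipid bilayer laid over a meshwork of spectrin and actin. Spectrin is tied to the bilayer at a pair of complexes: ankyrin binds beta-spectrin to the anion exchanger band 3 and the Rh proteins, and the EPB41 product binds spectrin-actin junctions to glycophorin C. Inherited defects of these proteins cause spherocytosis, elliptocytosis or lack of blood group antigens. K562 cells transcribe fetal and embryonic globins, and the membrane genes are switched on as erythroid cells mature.

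GYPB and GYPE lie in a cluster of duplicated glycophorin genes on chromosome 4. The second coding exon is shown because the genes differ at few of its positions, so some reads from it cannot be told apart. In GRCh38 it spans chr4:144001185-144001283 in GYPB and chr4:143880411-143880509 in GYPE, both on the minus strand and 99 bases long. It is written 5′ to 3′ on the coding strand, with the 4 positions that differ between the genes in capitals.
GYPB: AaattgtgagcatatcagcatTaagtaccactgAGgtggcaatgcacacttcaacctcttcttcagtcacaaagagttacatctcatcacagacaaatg
GYPE: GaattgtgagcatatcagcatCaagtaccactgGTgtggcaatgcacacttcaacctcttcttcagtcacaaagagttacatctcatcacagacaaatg
Counted from 1 at the 5′ end of the exon, GYPE differed from GYPB by A1G, T22C, A34G and G35T. A read of 60 nt that misses these positions matches both genes exactly. Over whole coding transcripts, 112 of the 505 windows of 60 bases in GYPB (22.2%) also occurred elsewhere in the annotated transcripts, 6 of them in GYPE. In GYPE, 6 of 1628 windows (0.369%) were shared, in EPB41 24 of 5972 (0.402%), and in GYPC, RHAG, SLC4A1, ANK1 and SPTB 0. How reads that map to several places were counted is not given in the sources used here, so the counts of GYPB are uncertain. Most of its shared windows occur in genes other than GYPE.

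Total counts were 742470, 866894 and 866155 in the sgCtrl libraries and 959319, 5526904 and 4062363 in the sgN6AMT1 libraries, so sgN6AMT1 replicates 2 and 3 were the deepest and carry the smallest counting error. N6AMT1 itself was counted 6, 5 and 9 times in the sgCtrl libraries and 0, 18 and 16 times in the sgN6AMT1 libraries. That is 8.08 ± 2.31 against 2.40 ± 2.11 cpm (counts scaled to the library's total and given per 1e+06; SD, n = 3), with every sgN6AMT1 library below every sgCtrl library (2-sided exact permutation p = 0.1, the smallest that 3 against 3 libraries allow). The label was checked against lineage markers: 30 of 37 other erythroid genes passed the filter on low counts, and none of 14 megakaryocytic markers did. The lists were chosen with earlier results of these data known, so this is a weak check. All 8 membrane genes were detected in every library, which is no check, as they were chosen in the same way. Other erythroid genes summed to 14860 to 21230 cpm of the total in sgCtrl and 21660 to 37780 in sgN6AMT1, a sum carried by the fetal globins HBG1 and HBG2. Without both it was 5771 to 6672 and 6423 to 7835, which overlapped, and the 30 tested genes went both ways (16 positive and 14 negative log2 fold changes, median 0.030). On the same scale megakaryocytic markers summed to 35.8 to 55.2 and 19.8 to 30.3 (GP9, GP1BA, PF4, VWF and SELP at 0 throughout), and 18 myeloid markers to 57.7 to 62.0 and 147 to 172.6 (ELANE, AZU1, S100A8 and FCN1 at 0 throughout). Lymphoid markers summed to 13.9 to 20.8 and 15.2 to 22.7, and epithelial and fibroblast markers to 163 to 186.9 and 116.4 to 173. Single genes carried most of both sums. CD3D had 11.55 to 18.86 in sgCtrl and 12.67 to 18.95 in sgN6AMT1, and EPCAM 140.1 to 169.6 and 94.03 to 155.3. The part that these shifts had in the results for the membrane genes was not tested, and in bulk RNA fewer cells of a type and less RNA per cell cannot be told apart.

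EPB41 was the only membrane gene differentially expressed between the conditions, and it was higher in sgN6AMT1 by 1.45-fold. The test was edgeR's quasi-likelihood test over the 8324 genes that passed the filter on low counts, called at a Benjamini-Hochberg adjusted p under 0.05. Of the 8 genes, all passed the filter and 1 was called, or 12.5%, beside 820 of all genes tested, or 9.85% (5.09% higher and 4.76% lower; 301, 220, 495 and 538 genes without sgCtrl replicate 1 or 2 or sgN6AMT1 replicate 2 or 3). The share among the membrane genes is therefore near the background. The log2 fold change was positive for 6 genes and negative for 2, with a median of 0.22, beside a median of 0.0087 over all genes tested. The 8 genes took 0.167 ± 0.0034% of all counts in sgCtrl and 0.191 ± 0.010% in sgN6AMT1 (SD, n = 3). Most of this difference lay in EPB41 and RHAG, and the means of GYPB and ANK1 were lower in sgN6AMT1.

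**Figure D1:**
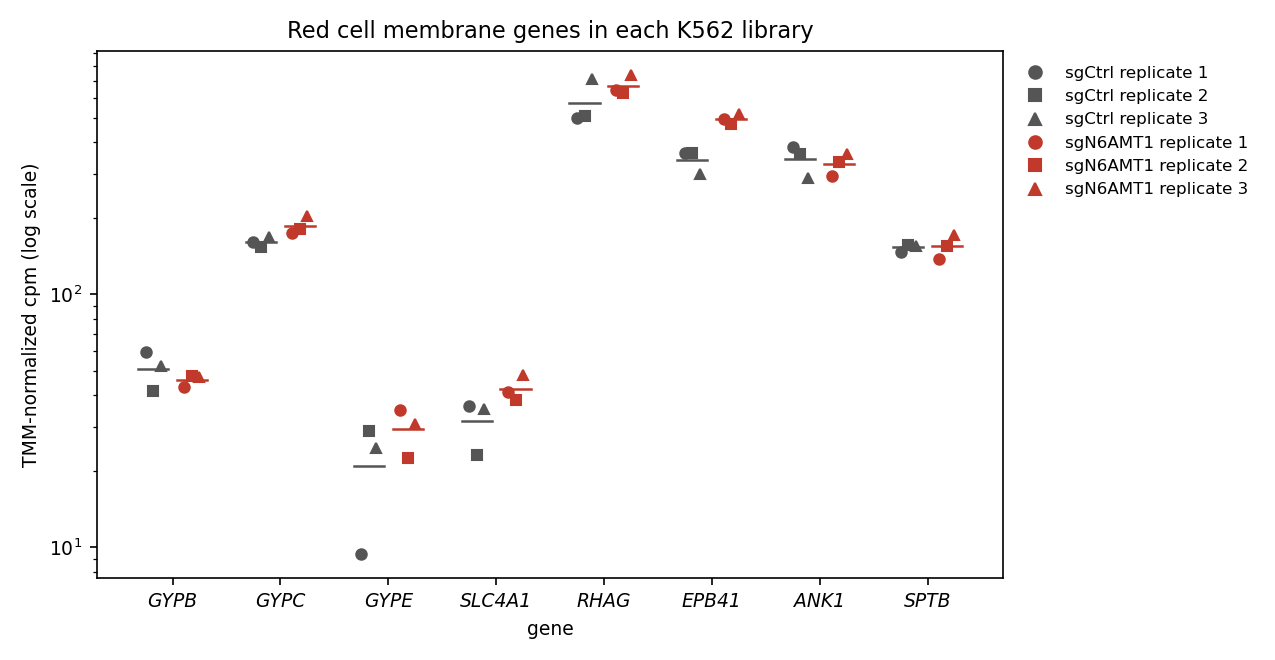
Normalized cpm of the 8 genes (log axis) in each library, with sgCtrl in grey and sgN6AMT1 in red, symbols for the replicates and a bar at each mean of 3 libraries. EPB41 separates by condition, from 300.6 to 363.4 in sgCtrl and from 473.4 to 516.5 in sgN6AMT1, and GYPE in sgCtrl replicate 1 lies apart at 9.41.

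In order of level, the membrane genes span a wide range within control cells. Levels can be compared between genes only per length, so normalized cpm were divided by kilobases of merged annotated exon. RHAG was highest at 218 ± 46.2 cpm per kb in sgCtrl (SD, n = 3), followed by GYPC at 44.7 ± 1.94, ANK1 at 31.3 ± 4.37, GYPB at 26.7 ± 4.64, EPB41 at 17.1 ± 1.79, GYPE at 10.5 ± 5.11, SPTB at 10.4 ± 0.332 and SLC4A1 at 6.16 ± 1.44. Between neighbours in this order, ANK1 and GYPB overlapped over the 3 libraries, as did GYPE and SPTB, and the other neighbours did not. The order depends on the length used: with the longest annotated transcript, RHAG and GYPC stayed first and second and SLC4A1 last, ANK1 moved from rank 3 to rank 5, and GYPB, EPB41 and SPTB each moved up 1 rank above it or above GYPE.

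Among the glycophorins, no gene was differentially expressed. GYPC (chr2:126656133-126696667, plus strand, GRCh38) encodes glycophorins C and D, which carry the Gerbich antigens and anchor the skeleton. It measured 161.3, 154.6 and 168.6 normalized cpm in sgCtrl and 174.9, 182.0 and 204.4 in sgN6AMT1. Every sgN6AMT1 library lay above every sgCtrl library, by a small margin. In the edgeR fit its log2 fold change was 0.22 ± 0.150 (SE; 95% interval -0.097 to 0.53; adjusted p = 0.381), and with each library corrected for transcript GC content and length it was -0.015.

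GYPB (chr4:143996104-144019380, minus strand) encodes glycophorin B, which carries the S and s antigens. Its levels were 59.1, 41.5 and 51.9 normalized cpm in sgCtrl and 43.2, 47.6 and 47.0 in sgN6AMT1, and the sgN6AMT1 values lay inside the sgCtrl range. The log2 fold change was -0.13 ± 0.215 (95% interval -0.58 to 0.32; adjusted p = 0.759). GYPE (chr4:143870864-143905563, minus strand) is the least transcribed of the family by counts: the sgCtrl libraries held 7, 25 and 21 counts, the sgN6AMT1 libraries 33, 124 and 119. Its normalized cpm were 9.41, 28.8 and 24.8 against 34.8, 22.6 and 30.6, which overlapped. The 7 counts of sgCtrl replicate 1 give 9.43 cpm of the total with a 95% Wilson interval of 4.57 to 19.5, so the depth is a limit for this gene. Its log2 fold change was 0.41 ± 0.335 (95% interval -0.29 to 1.11; adjusted p = 0.470), and 0.074 without that library.

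In the band 3 and Rh complex, neither SLC4A1 nor RHAG was differentially expressed. SLC4A1 (chr17:44248390-44268141, minus strand) encodes band 3, the chloride-bicarbonate exchanger to which ankyrin binds. It measured 36.3, 23.1 and 35.4 normalized cpm in sgCtrl and 41.1, 38.3 and 47.8 in sgN6AMT1. The conditions did not overlap, but sgCtrl replicate 1 and sgN6AMT1 replicate 2 were close. This is a log2 fold change of 0.44 ± 0.250 (95% interval -0.089 to 0.96; adjusted p = 0.281), from 20 to 30 counts per sgCtrl library.

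RHAG (chr6:49605175-49636839, minus strand) encodes the Rh-associated glycoprotein, an ammonium transporter without which Rh antigens do not reach the surface. It measured 497.2, 508.8 and 713.2 normalized cpm in sgCtrl and 643.8, 624.2 and 740.7 in sgN6AMT1. The third sgCtrl library lay within the sgN6AMT1 range and the other two below it. The log2 fold change was 0.22 ± 0.162 (95% interval -0.11 to 0.56; adjusted p = 0.405), and 0.41 without sgCtrl replicate 3 (adjusted p = 0.0995).

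In the membrane skeleton, EPB41 was higher in sgN6AMT1 while ANK1 and SPTB were not detectably different. EPB41 (chr1:28887091-29120046, plus strand) encodes the protein that strengthens the contact of spectrin with actin and binds glycophorin C. Its counts were 269, 315 and 255 for sgCtrl and 471, 2594 and 2009 for sgN6AMT1, or 361.5, 363.4 and 300.6 against 496.3, 473.4 and 516.5 normalized cpm. All sgN6AMT1 libraries lay above all sgCtrl libraries, at 495.4 ± 21.5 against 341.8 ± 35.7 (SD, n = 3). The log2 fold change was 0.54 ± 0.143 (95% interval 0.24 to 0.83; adjusted p = 0.0246). With DESeq2 it was 0.51 (adjusted p = 0.0165), with all libraries thinned to 742470 counts 0.61 (adjusted p = 0.0169), and with the GC content and length correction 0.66 (adjusted p = 0.0040). The call was lost when sgCtrl replicate 1, 2 or 3 was left out (adjusted p = 0.0639, 0.0958 and 0.0697) or sgN6AMT1 replicate 2 (0.0567), with log2 fold changes of 0.57, 0.57, 0.45 and 0.57. EPB41 is alternatively spliced during erythroid maturation, and gene counts do not separate its isoforms.

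ANK1, on chromosome 8, encodes erythrocyte ankyrin, the adaptor between band 3 and beta-spectrin. It measured 381.6, 361.1 and 290.0 normalized cpm in sgCtrl and 295.1, 333.5 and 360.2 in sgN6AMT1, so the conditions overlapped. Between them the log2 fold change was -0.06 ± 0.151 (95% interval -0.37 to 0.26; adjusted p = 0.855). SPTB (chr14:64746283-64879907, minus strand) encodes erythroid beta-spectrin. It measured 147.8, 156.9 and 155.6 normalized cpm in sgCtrl and 138.0, 155.1 and 171.7 in sgN6AMT1, with the wider spread in sgN6AMT1. The log2 fold change was 0.02 ± 0.154 (95% interval -0.30 to 0.35; adjusted p = 0.943).

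**Figure D2:**
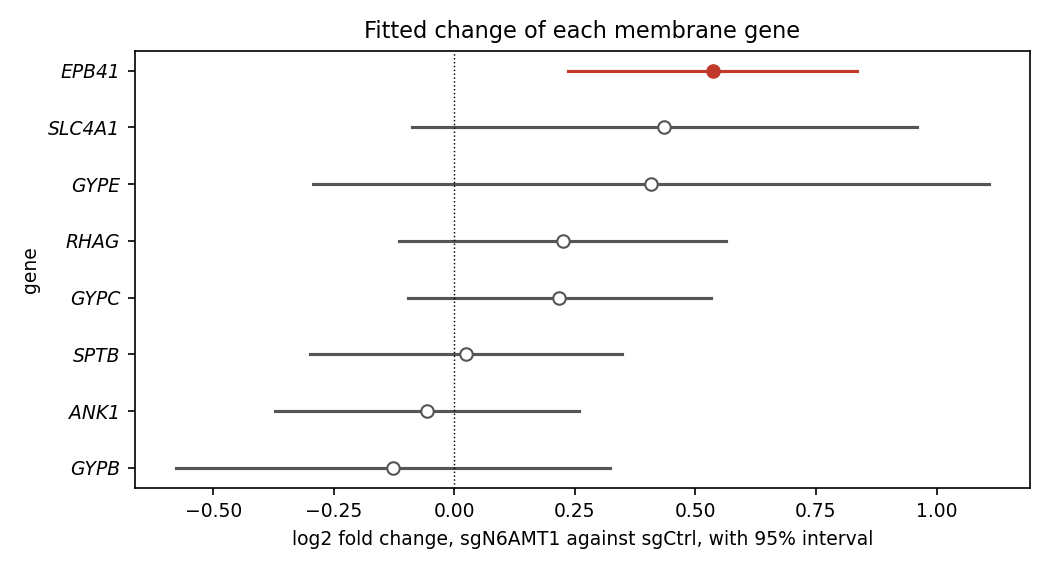
Log2 fold change of each gene (sgN6AMT1 against sgCtrl, horizontal axis) with its 95% interval from the edgeR fit, genes ordered by value, filled red where called. The interval of EPB41 runs from 0.24 to 0.83, and those of the other 7 genes include 0.

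Without any overlap between the conditions were 3 of the 8 genes, EPB41, GYPC and SLC4A1, all higher in sgN6AMT1. Over all genes tested, 2434 did not overlap in either direction, or 29.2% (1258 of them higher), so 3 of 8 is near that share.

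Of 33 other skeleton genes and paralogs, 28 were tested, 5 were lower in sgN6AMT1 and none was higher, with a median log2 fold change of -0.15. That is 17.9% called, beside 9.85% of all genes tested (4.76% lower). Of the 28, 10 did not overlap between the conditions, 4 of them higher, beside 29.2% of all genes tested. The 5 became 2 without sgCtrl replicate 1 and 3 without sgCtrl replicate 2 or 3 or sgN6AMT1 replicate 2. ADD2, the beta-adducin that caps actin at the spectrin junctions, had 122.3, 93.5 and 62.5 against 33.7, 43.8 and 38.3 normalized cpm. Its log2 fold change was -1.22 ± 0.229 (adjusted p = 0.0033). TMOD1, tropomodulin, which caps the other end of those actin filaments, went from 40.3, 34.6 and 42.4 to 27.4, 14.4 and 14.1 normalized cpm, with a log2 fold change of -1.21 ± 0.298 (adjusted p = 0.0164). TMOD1 was not called without any 1 of the sgCtrl libraries or without sgN6AMT1 replicate 2 (adjusted p = 0.0601, 0.0549, 0.052 and 0.0825), nor at the thinned depth (adjusted p = 0.105). STOM (stomatin) and MYH10 (a nonmuscle myosin heavy chain), named after their values were seen, were also lower, at log2 fold changes of -0.76 and -0.68, and neither was called without sgCtrl replicate 1 (adjusted p = 0.0696 and 0.0921). Each lost its call in 3 of 17 alternatives (highest edgeR adjusted p = 0.0742 and 0.102). MPP1, which joins the complex of glycophorin C and the EPB41 product, stood at 310.4 ± 12.9 and 346.6 ± 50.7 normalized cpm and was not called (adjusted p = 0.540).

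Of 29 other blood group and surface genes, 19 were tested, 5 were higher in sgN6AMT1 and none was lower, with a median log2 fold change of -0.017. That is 26.3% called, beside 9.85% of all genes tested (5.09% higher). Of the 19, 10 did not overlap between the conditions, 7 of them higher. Over all genes tested, 2434 (29.2%) did not overlap, 1258 of them higher. RHCE and SEMA7A are among both the 5 and the 7. They passed the filter on low counts through the sgN6AMT1 libraries and not through sgCtrl. Neither share is therefore read as a result about the list. The 5 became 3 without sgCtrl replicate 1 or sgN6AMT1 replicate 3 and 2 without sgCtrl replicate 2. RHCE, which encodes the Rh protein of the C and E antigens, had 6.72, 10.4 and 18.9 normalized cpm in sgCtrl and 31.6, 38.0 and 43.96 in sgN6AMT1. Its log2 fold change was 1.66 ± 0.331, from 5, 9 and 16 counts in sgCtrl, and 307 of its 1512 windows of 60 bases (20.3%) also occurred in RHD. RHD, the D antigen gene, was not called, at 23.5 ± 7.28 against 28.4 ± 3.99 normalized cpm (adjusted p = 0.563). SEMA7A, which carries the John Milton Hagen antigen, had 2.69, 27.7 and 14.2 against 44.3, 46.9 and 53.2 normalized cpm, a log2 fold change of 1.66 ± 0.375. No test is given for RHCE and SEMA7A, which the 5 genes called higher include. BSG, basigin, the carrier of the Ok antigen, had 271.4, 207.7 and 232.2 against 342.5, 392.6 and 426.2 normalized cpm, a log2 fold change of 0.71 ± 0.153 (adjusted p = 0.0082, and 0.0836 without sgCtrl replicate 2). KEL (the Kell protein) and CD59 (a complement inhibitor), named after their values were seen, rose by 0.66 and 0.63 on the log2 scale, and DESeq2 did not call them (adjusted p = 0.0937 and 0.0649). Of 17 alternatives, KEL lost its call in 9 and CD59 in 6 (highest edgeR adjusted p = 0.152 and 0.153).

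Of 34 other transporters and channels, 25 were tested and none was called, with log2 fold changes from -0.58 to 0.48. By edgeR 4 of the 25 had an unadjusted p under 0.05, beside 2185 of all 8324 genes tested, so they do not stand out. DESeq2 called 0. Of 37 other erythroid genes, 30 were tested, 5 were higher and 3 lower, or 26.7% beside 9.85% of all genes tested. The 8 calls became 5 without sgCtrl replicate 1 and 3 without sgCtrl replicate 2. ALAS2, the erythroid enzyme that begins heme synthesis, had 72.6, 71.5 and 84.9 normalized cpm in sgCtrl and 256.1, 240.6 and 324.2 in sgN6AMT1, a log2 fold change of 1.84 ± 0.175 (adjusted p = 6.59e-06). The fetal globins HBG2 and HBG1 were higher by 1.05 and 1.04 on the log2 scale (adjusted p = 0.0144 and 0.0149, and with DESeq2 0.120 and 0.121). For both the conditions overlapped, with HBG1 at 7873 normalized cpm in sgCtrl replicate 3 and 7867 in sgN6AMT1 replicate 1. HBG1 and HBG2 are near-identical copies whose reads cannot all be told apart. LYL1 and HBE1, named after their values were seen, were the other two. Lower were the erythroid nuclear factors LMO2 (-1.01), ZFPM1 (-0.99) and HEMGN (-0.93), of which HEMGN had an adjusted p of 0.0030. ZFPM1 was not called by DESeq2 (adjusted p = 0.0599), and LMO2 was not called at the thinned depth (adjusted p = 0.136). Of 17 alternatives, ZFPM1 lost its call in 6 (highest edgeR adjusted p = 0.180) and LMO2 in 4. In the same libraries the myeloid markers CD33 and LYZ were called higher (LYZ not by DESeq2, adjusted p = 0.0967, and in 8 of 17 alternatives). SPI1 and FCGR1A, each with 1 count over all sgCtrl libraries, passed the filter through the sgN6AMT1 libraries alone. The part of these markers in the changes above was not tested.

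**Figure D3:**
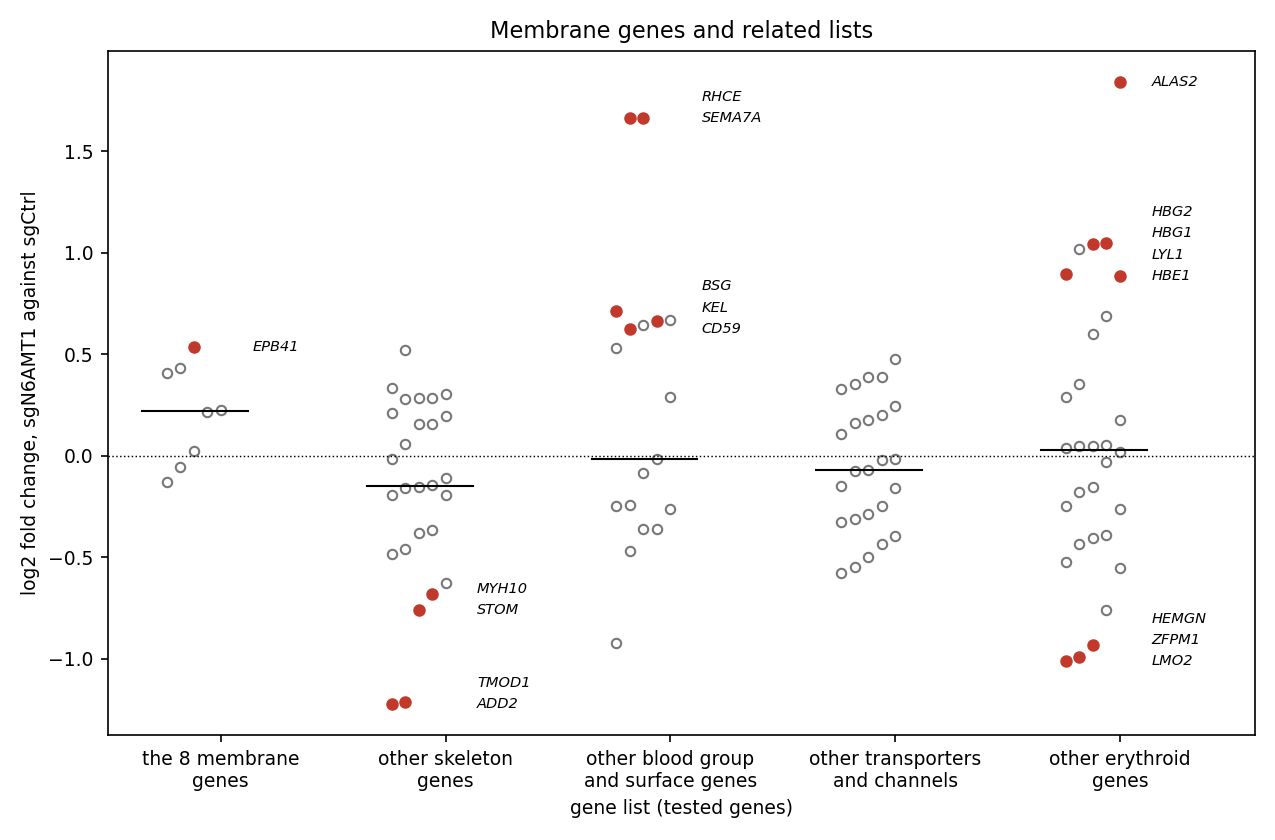
Log2 fold change (vertical axis) of the tested genes reported here among the 8 membrane genes and the related lists; filled red points were called, open points were not, and a line marks the median of all tested genes of a list. Called genes in the skeleton list lie below 0, those in the blood group and surface list (5) lie above it, and the transporter list has none. Among these 5, RHCE and SEMA7A passed the filter on low counts through the sgN6AMT1 libraries and not through sgCtrl.

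Several of the products act at fixed partners, so counts of partner genes were divided within each library, which removes any scaling between libraries. The 7 pairs were chosen after the values were seen, and the ratios are given without a test. The ratio of EPB41 to SPTB went from 2.23 ± 0.267 to 3.22 ± 0.327 (SD, n = 3) without overlap, whereas that of ANK1 to SPTB was 2.25 ± 0.362 and 2.13 ± 0.027 and overlapped. GYPC to EPB41 was 0.477 ± 0.0729 and 0.378 ± 0.022, without overlap. The ratio of RHCE to RHAG went from 0.0201 ± 0.0065 to 0.0564 ± 0.0064 without overlap. RHCE had 5, 9 and 16 counts in sgCtrl and passed the filter on low counts through the sgN6AMT1 libraries. Its separation is therefore not read as a result. The ratio of RHD to RHAG was 0.0405 ± 0.0042 and 0.0423 ± 0.0027. The ratios of SLC4A1 to ANK1 and of GYPE to GYPB overlapped as well.

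**Figure D4:**
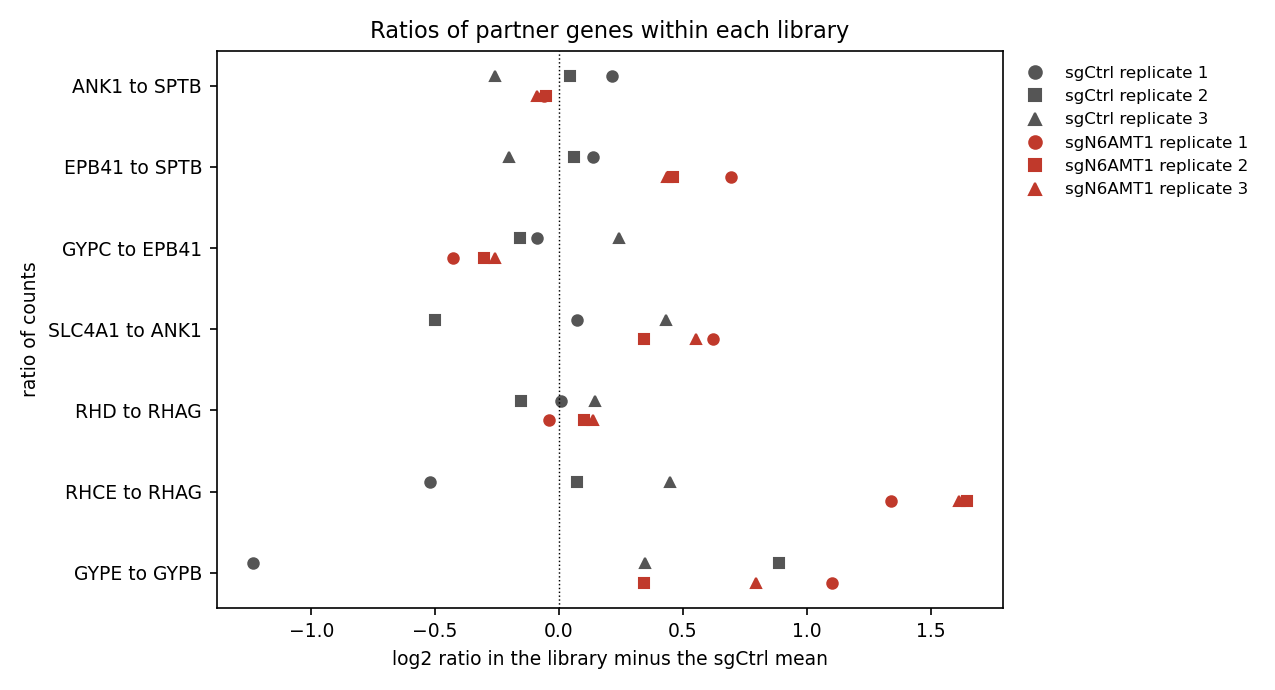
Log2 of each ratio of counts within a library, minus the mean of the 3 sgCtrl libraries (horizontal axis), for 7 pairs; grey symbols are sgCtrl and red symbols sgN6AMT1 libraries. EPB41 to SPTB lies higher in sgN6AMT1 by 0.53 on average, while ANK1 to SPTB differs by 0.067. RHCE to RHAG lies higher by 1.53, with RHCE at 5, 9 and 16 counts in sgCtrl and past the filter through sgN6AMT1.

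The genes whose profile over the 6 libraries was most like each membrane gene were sought among 4169 tested genes with a mean of at least 50 normalized cpm, by the root mean square difference of log2 values centred on their mean. For EPB41 these were SLC25A38 (0.048) and NDUFS4 (0.053), for GYPC ST3GAL2 (0.017) and PSMA7 (0.028), and for RHAG H3F3C (0.042) and TMEM38B (0.043). For SLC4A1 they were APOA1BP (0.059) and MZT2A (0.064), for ANK1 NUMA1 (0.024) and MDN1 (0.047), for SPTB NUP133 (0.033) and NOC4L (0.035), and for GYPB RNF126 (0.044) and GFPT1 (0.051). The nearest to GYPE, TMEM43 and ZNF655, differed by 0.19 and 0.24. GYPE had 7, 25 and 21 counts in the sgCtrl libraries, and the part of counting error in these distances was not tested. Chosen from so many genes over 6 libraries, such matches describe these libraries only.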

How the data were processed

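RNA from 3 independent lentiviral transductions per condition was sequenced as stranded, rRNA-depleted total RNA libraries with 60 nt single-end reads (the labels list polyA RNA). The authors trimmed reads with cutadapt, mapped them with HISAT2 to GRCh38 and deposited raw counts per gene without normalization. The counting tool, its use of strand and its treatment of multiply mapped reads are not given in the sources used here. The table holds 19330 gene symbols, and no other data of the study were analysed here.

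Genes were filtered with filterByExpr and TMM-normalized, and sgN6AMT1 was compared with sgCtrl without covariates with edgeR 4.0.16 in R 4.3.3 (quasi-likelihood fit and test), with Benjamini-Hochberg adjustment over 8324 genes. The biological coefficient of variation was 0.16. The procedure was tested on simulated data. Normalized cpm are TMM-normalized cpm, and intervals for shares (95%, Wilson) cover counting error only. Positions, lengths and the glycophorin exons were read from GENCODE v44 and GRCh38, which matched 18855 symbols. No pair of libraries agreed within sampling noise.

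The membrane genes and the lists were chosen with earlier results of these data known. Named genes are these 8, N6AMT1, in each list the called genes (at most 3 highest and 3 lowest log2 fold changes), and the 2 genes most alike in profile; others are said to be named afterwards, and some listed genes are not reported here. Alternatives were DESeq2 1.42.0, RLE or no scaling, TMM without mt-DNA-encoded genes, no filter, at least 10 counts in every library, a replicate block, thinning to 742470 counts, each library left out, and GYPB and GYPE summed with homologous counts. A correction for transcript GC content and length (8163 genes, 98.1% of those tested), alone and with the block, was added after seeing the data, as was leaving out libraries for the ratios.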

Additional observations from a re-analysis of the deposited data

How the results depend on the processing

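EPB41 kept its direction in all 17 alternatives (log2 fold change 0.45 to 0.66) and its call in 13. RHAG, SLC4A1 and GYPE were positive in every alternative that gave a value and never called. Leaving out single libraries moved the number of membrane genes called from 0 to 1, of skeleton genes from 2 to 5, of blood group genes from 2 to 5, of transporters from 0 to 1, of other erythroid genes from 3 to 9 and of all genes from 220 (without sgCtrl replicate 2) to 951 (without sgN6AMT1 replicate 1), and the log2 fold change of EPB41 from 0.45 to 0.57, of ANK1 from -0.17 to 0.018 and of SPTB from -0.052 to 0.087. DESeq2 called 3 blood group and 5 other erythroid genes. Thinning called 3 skeleton genes and 1 transporter, and testing without a filter called 1 transporter. The GC content and length correction called 1 transporter and turned GYPC (-0.015) and SPTB (-0.094). With the block added, it called 3 transporters, 14 other erythroid genes and 1328 of all genes, and gave GYPB 0.015, GYPC -0.017 and SPTB -0.10. None of these turned values was called. The cause of these moves was not tested. The settings that leave out libraries or thin counts also hold fewer samples or counts.

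Same-numbered libraries deviated together with correlations of -0.00052, 0.083 and 0.19, beside -0.19 to 0.14 for libraries with different numbers. Of these, -0.00052 and 0.083 lay within that range and 0.19 above it. The numbers were not taken to pair the samples in the main fit. A replicate block called 1195 genes, among them 2 transporters and 1 membrane gene, EPB41 (log2 fold change 0.54, adjusted p = 0.0103). Summed counts of the homologous genes leave no separate value for GYPB or GYPE. Depth limits GYPE most, at 7 to 25 counts per sgCtrl library.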

Other observations

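Of the 18 myeloid markers, 3 that were at 0 or 1 count over all sgCtrl libraries, SPI1, FCGR1A and ITGAM, had 110 to 174 counts over the sgN6AMT1 libraries. These 3 were picked with their values known, and other markers of the list stayed at or near 0, among them ELANE, AZU1, S100A8 and FCN1 at 0 throughout, CD14 with 1, 1 and 1 counts in sgN6AMT1 and MPO with 0, 4 and 2. SPI1, the transcription factor PU.1 of granulocytes and monocytes, was counted 0, 1 and 0 times in the sgCtrl libraries and 17, 97 and 60 times in the sgN6AMT1 libraries, which is 174 counts in 10548586 against 1 in 2475519 (ratio 40.8, 95% exact counting interval 7.23 to 1622). FCGR1A, the high-affinity IgG receptor, had 1, 0 and 0 counts against 15, 63 and 94 (ratio 40.4, interval 7.15 to 1603). ITGAM, an integrin of myeloid cells, had 0 counts in all sgCtrl libraries and 5, 55 and 50 in sgN6AMT1, at least 8.60-fold higher when 3 counts are allowed over the sgCtrl group. CD33, a sialic acid-binding receptor, was higher by 1.21 on the log2 scale (edgeR adjusted p = 0.0120, and 0.0917 without sgCtrl replicate 2). These intervals cover counting error only, and no test is given for SPI1 and FCGR1A, which passed the filter on low counts through the sgN6AMT1 libraries alone.

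GC-rich genes were on average higher in sgN6AMT1: the median log2 fold change was -0.12 in the fifth of tested genes with the lowest transcript GC content and 0.16 in the fifth with the highest. Transcript GC content was 40.6% for EPB41, 55.6% for GYPC and 59.2% for SPTB.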
